A study of Mus musculus with 6 samples.

Results

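Oxidative phosphorylation is carried out by 5 protein complexes of the mitochondrial inner membrane, and the nuclear genes for their subunits are described here in natural killer (NK) cells from mouse spleen. The genes were taken by symbol: all those starting with Ndufa, Ndufb, Ndufc, Ndufs, Ndufv, Sdh, Uqcr, Cox4 to Cox8, Cyc1 or Atp5, apart from the Ndufaf assembly factors. The rule found 65 of the 8520 genes in the deposited table. By complex these were 27 genes of complex I, 3 of complex II, 6 of complex III, 11 of complex IV and 16 of complex V, plus the complex II assembly factors Sdhaf1 and Sdhaf2, which the symbol rule takes in. A further 28 protein-coding mouse genes carry such symbols but were not analysed here, among them Sdhd, Ndufab1, Atp5d, Cox4i2, Cox7a2 and Uqcrq. A gene is in the table only where it reached 10 CPM (counts per 1000000 reads of the library) in at least 2 libraries, so the counts below describe the listed genes and not every subunit.

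The study asked how gene transcription differs between splenic NK cells that display different Ly49 receptors, which are inhibitory or activating receptors for MHC class I molecules. Both groups came from untreated C57BL/6 (C57BL/6Ncr) mice aged 6 to 8 weeks, and both were CD3-negative, NK1.1-positive sorted cells from a preparation of 20 spleens. Ly49G+ cells were positive for Ly49G and negative for Ly49C/I, and Ly49I+ cells were negative for Ly49G and positive for Ly49C/I. Each group has 3 libraries. The antibody used for Ly49I also binds Ly49C, so Ly49I+ cells may carry either receptor. How the mice were divided among replicates is not stated, and the p-values measure only the spread between these libraries, which may be partly technical.

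The complexes work in series. Complexes I and II pass electrons from NADH and succinate to ubiquinone, complex III passes them on to cytochrome c, and complex IV passes them to oxygen. Complexes I, III and IV pump protons, and complex V, the ATP synthase, uses the proton gradient to make ATP. Core subunits carry the flavin, iron-sulphur, haem and copper centres or the proton channel, and accessory subunits surround them. Resting NK cells have a low metabolic rate, and cytokine stimulation is known to raise both their glycolysis and their oxidative phosphorylation.

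The libraries held 33599679 to 37308068 reads in Ly49G+ cells and 34634383 to 40892154 reads in Ly49I+ cells. The sorted receptors followed the labels. Klra7, which encodes Ly49G, was at 917 to 1037 CPM in Ly49G+ and at 10.8 to 11.7 CPM in Ly49I+ libraries, and Klra9, which encodes Ly49I, was at 74.1 to 84.1 CPM in Ly49G+ and at 990 to 1194 CPM in Ly49I+ libraries. All 12 NK cell markers were measured, with sums of 15500 to 15860 CPM in Ly49G+ and 16210 to 16980 CPM in Ly49I+ libraries; in the limma test 1 of them, Eomes, was higher in Ly49G+, and 3, Prf1, Tbx21 and Fcer1g, were higher in Ly49I+. Of 13 T cell markers 8 were measured and 5 were higher in Ly49G+, with sums of 400 to 468 CPM in Ly49G+ and 287 to 303 CPM in Ly49I+. Of 14 monocyte and macrophage markers 10 were measured and 8 were higher in Ly49I+, with sums of 69.3 to 103 CPM in Ly49G+ and 300 to 1231 CPM in Ly49I+, Ly49I+ replicate 2 being the highest. Of 10 B cell markers 2 were measured and 1, Cd22, was higher in Ly49G+, with sums of 303 to 389 CPM in Ly49G+ and 178 to 350 CPM in Ly49I+. No neutrophil or erythroid marker was in the table, and 1 platelet marker, Itgb3, was at 20.6 to 24.4 CPM over the 6 libraries. No measured marker was at 0 reads. The part of these cells' RNA in the subunit values was not tested, and in sorted bulk samples fewer cells of a type and less RNA per cell cannot be told apart.

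RNA for the oxidative phosphorylation subunits differed little between the 2 populations, and no gene passed the test. The median log2 difference of Ly49G+ minus Ly49I+ was -0.02 over the 65 genes and -0.02 over all 8520 genes. Single genes ran from -0.55 for Ndufb8 to 0.36 for Sdhaf1, with 29 positive and 36 negative. None of the 65 passed an adjusted p of 0.05 in the limma test, against 3.59% of all genes (1.82% with Ly49G+ above and 1.77% with Ly49I+ above), and none passed with limma's voom precision weights. At an unadjusted p of 0.05 there were 6 of 65 genes (9.23%), against 19.8% of all genes. The 3 libraries of one group lay wholly above those of the other for 9 of 65 genes (13.8%), against 25.8% of all genes. Of these 9, 8 were higher in Ly49G+, namely Uqcrb, Cox6c, Ndufv3, Ndufv2, Sdhaf2, Atp5pb, Ndufa4 and Cox5a, and 1, Ndufb8, was higher in Ly49I+. For the other 56 the groups overlapped. Over all genes, 12.5% lay wholly apart with Ly49G+ above and 13.4% with Ly49I+ above. The 8 of 65 higher in Ly49G+ were thus near the share of all genes, and the 1 higher in Ly49I+ was below it. Cox5a, and Sdhaf1 at the top of the range, reached 10 CPM in at least 2 libraries only through Ly49G+, so their listing depends on that group. Atp5e and Atp5k reached it only through Ly49I+, so theirs depends on Ly49I+.

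The intervals show what sizes of difference the libraries allow. For 55 of the 65 genes the 95% interval of the difference lay within 1.5-fold in either direction, that is within 0.585 on the log2 scale. The same held for 7227 of all 8520 genes, a similar share, so it is not particular to these genes. The 10 others of the 65 were Ndufb8, Ndufb7, Ndufs7, Ndufa11, Ndufc2, Sdhaf1, Cox6a1, Cox5a, Atp5g2 and Atp5g3. The median distance from the difference to the end of its interval was 0.26 for these genes and 0.23 for all genes, and the median SD within a group was 0.14 for these genes and 0.12 for all genes, on the log2 scale. Depth ran from 168 reads for Ndufc2 to 15260 reads for Atp5a1 in a single library.

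**Figure D1:**
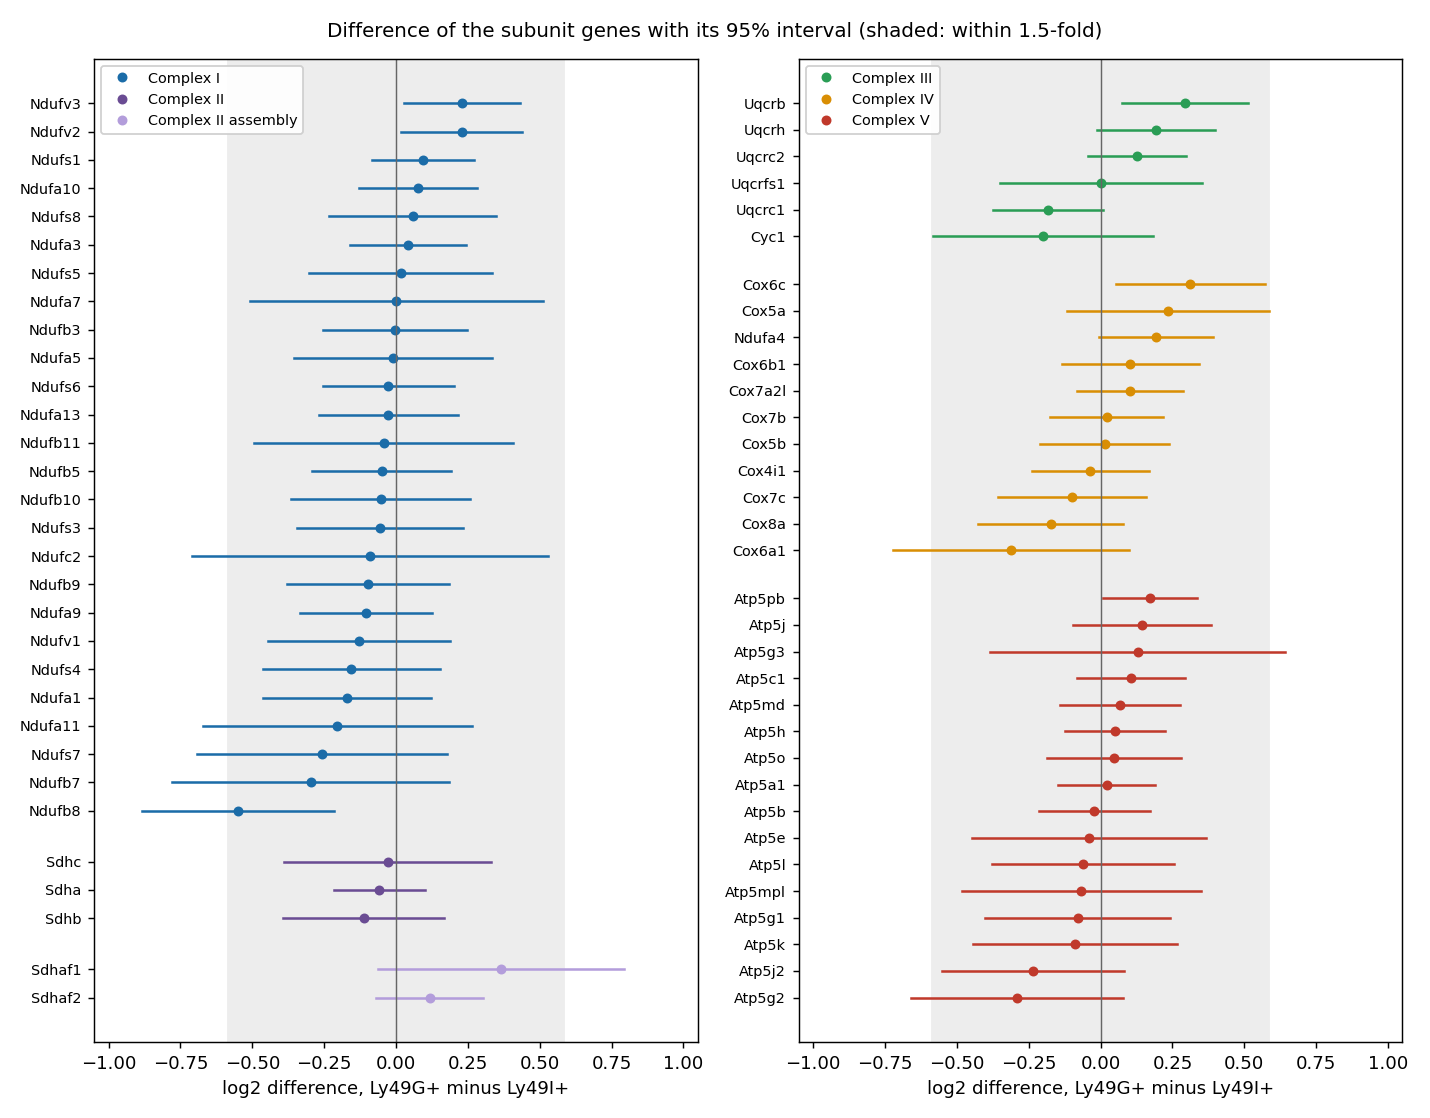
Log2 difference of Ly49G+ minus Ly49I+ (horizontal axis) for 64 of the 65 genes, grouped and coloured by complex; points are limma estimates, lines are 95% intervals and the shaded band is 1.5-fold. The points run from -0.55 for Ndufb8 to 0.36 for Sdhaf1, 54 of the 64 intervals lie inside the band, and no gene passed the adjusted threshold.

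With the replicate number as a block in the limma model, 2 of the 65 genes passed, against 11.7% of all genes (5.69% higher in Ly49G+ and 5.96% higher in Ly49I+). These were Uqcrb, higher in Ly49G+ (log2 difference 0.29 ± 0.07 SE, adjusted p = 0.0221), and Ndufb8, lower in Ly49G+ (-0.55 ± 0.15, adjusted p = 0.0309). Without the block their adjusted p-values were 0.138 and 0.0783. Over all the alternatives tried the adjusted p ran from 0.0221 to 0.457 for Uqcrb and from 0.0309 to 0.231 for Ndufb8, and the sign did not change for either gene.

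Complex I takes electrons from NADH in its peripheral arm and pumps protons through its membrane arm. Its 27 listed genes had a median log2 difference of -0.04, with 8 positive and 19 negative. Ndufb8, an accessory subunit of the membrane arm (chr19:44548571-44555442, build GRCm38.p6), had the largest difference of any subunit. Its RNA was at 15.1, 13.7 and 11.5 CPM in Ly49G+ replicates 1, 2 and 3, against 18.6, 17.7 and 22.8 CPM in Ly49I+ replicates 1, 2 and 3. Every Ly49G+ library was below every Ly49I+ library, and the interval of the log2 difference was -0.88 to -0.22. The other 6 listed Ndufb genes, all accessory subunits of the same arm, overlapped between the groups. All 7 Ndufb differences were negative, with a median of -0.05. In Ly49I+ replicate 3 the mean log2 CPM of the 7 genes was 4.77, while the other libraries had 4.38, 4.28 and 4.33 in Ly49G+ replicates 1, 2 and 3, and 4.37 and 4.31 in Ly49I+ replicates 1 and 2. Without Ly49I+ replicate 3 the median Ndufb difference was 0.02.

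The peripheral arm holds the NADH-oxidising module and the ubiquinone-binding module. Ndufv3, an accessory subunit beside the flavin site (chr17:31520115-31531326), was at 49.6, 47.6 and 55.2 CPM in Ly49G+, against 40.5, 44.8 and 44.6 CPM in Ly49I+. Ndufv2, which holds an iron-sulphur centre (chr17:66078795-66101559), was at 38.4, 45.4 and 44.6 CPM in Ly49G+, against 36.65, 37.6 and 35.0 CPM in Ly49I+. For both genes all Ly49G+ libraries lay above all Ly49I+ libraries, by narrow gaps. Their log2 differences were 0.23 ± 0.09 (SE, limma adjusted p = 0.205) and 0.23 ± 0.10 (adjusted p = 0.222). The flavin-binding subunit gene Ndufv1 went the other way, at 20.9 ± 1.37 CPM in Ly49G+ and 23.1 ± 4.58 CPM in Ly49I+ (SD, n = 3 each), with overlapping groups. Ndufs1, the largest iron-sulphur subunit, was at 63.8 ± 1.38 CPM in Ly49G+ and 59.8 ± 3.597 CPM in Ly49I+ (SD, n = 3 each). Over 6 genes taken here for the NADH-oxidising module, these 4 with Ndufs4 and Ndufs6, the median log2 difference was 0.03. This choice may leave out other listed subunits of the module.

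In the ubiquinone-binding module, Ndufs3, a core subunit without a redox centre, was at 16.4 ± 1.41 CPM in Ly49G+ and 17.0 ± 1.69 CPM in Ly49I+ (SD, n = 3 each). Ndufs8, which carries iron-sulphur centres, was at 23.3 ± 0.789 CPM in Ly49G+ and 22.6 ± 3.73 CPM in Ly49I+ (SD, n = 3 each). The groups overlapped for both genes. Ndufs7, which carries the last iron-sulphur centre before ubiquinone, was at 14.5, 13.4 and 12.2 CPM in Ly49G+, against 13.2, 13.8 and 22.2 CPM in Ly49I+. A single library, Ly49I+ replicate 3, stood above the 5 others.

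Complex II oxidises succinate and belongs to both the respiratory chain and the tricarboxylic acid cycle. Its 3 listed subunits had log2 differences between -0.11 and -0.03. Sdha, the flavoprotein that binds succinate, was at 145, 162 and 152 CPM in Ly49G+, against 163, 156 and 159 CPM in Ly49I+. Sdhb, the iron-sulphur subunit, was at 34.2, 41.9 and 38.7 CPM in Ly49G+, against 39.4, 36.2 and 49.2 CPM in Ly49I+. Sdhc, a membrane anchor, was at 22.5, 30.3 and 35.1 CPM in Ly49G+, against 25.1, 31.6 and 32.1 CPM in Ly49I+. The groups overlapped for all 3, and limma gave adjusted p-values of 0.674, 0.636 and 0.936. The sign for Sdhb turned without Ly49I+ replicate 3, and that for Sdhc without Ly49G+ replicate 1, Ly49I+ replicate 2 or Ly49I+ replicate 3, each to a difference of at most 0.15.

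The assembly factors of complex II lay on the other side of 0. Sdhaf1, needed to fit the iron-sulphur centres into Sdhb, was at 10.3, 10.5 and 12.02 CPM in Ly49G+, against 6.71, 10.4 and 8.73 CPM in Ly49I+. Ly49I+ replicate 2 reached into the range of the Ly49G+ libraries, and the log2 difference was 0.36 ± 0.19 (SE, limma adjusted p = 0.313). No other Ly49I+ library reached 10 CPM for Sdhaf1, so the gene is listed through its Ly49G+ libraries. Sdhaf2, needed to attach the flavin to Sdha, was at 58.65, 60.02 and 60.8 CPM in Ly49G+, against 50.4, 58.3 and 57.1 CPM in Ly49I+. These groups did not overlap, with a log2 difference of 0.12 ± 0.08 (SE, adjusted p = 0.453).

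Complex III moves electrons from ubiquinol to cytochrome c. Uqcrb, a subunit near the ubiquinone-reducing site (chr13:66900576-66905350), was at 106, 122 and 95.6 CPM in Ly49G+, against 90.8, 90.8 and 80.9 CPM in Ly49I+. All Ly49G+ libraries lay above all Ly49I+ libraries, and the interval of the log2 difference was 0.08 to 0.51. Uqcrh, the hinge subunit beside cytochrome c1, was at 112, 115 and 128 CPM in Ly49G+, against 92.2, 112 and 107 CPM in Ly49I+. Its groups overlapped by a margin under 1 CPM, with a log2 difference of 0.19 ± 0.09 (SE, limma adjusted p = 0.273). Uqcrc1, a core subunit that faces the matrix, was at 75.8, 70.8 and 69.4 CPM in Ly49G+, against 75.6, 80.5 and 89.4 CPM in Ly49I+. Only Ly49G+ replicate 1 and Ly49I+ replicate 1 were out of order, and the log2 difference was -0.18 ± 0.09 (SE, adjusted p = 0.267).

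The other core subunit gene, Uqcrc2, was at 107 ± 5.78 CPM in Ly49G+ and 97.75 ± 3.96 CPM in Ly49I+ (SD, n = 3 each). Cyc1, which encodes the haem protein cytochrome c1, was at 22.2 ± 4.21 CPM in Ly49G+ and 25.5 ± 5.13 CPM in Ly49I+ (SD, n = 3 each). Uqcrfs1, the Rieske iron-sulphur protein, was at 16.4 ± 1.38 CPM in Ly49G+ and 16.5 ± 3.11 CPM in Ly49I+ (SD, n = 3 each). The groups overlapped for all 3. The genes for the redox-carrying subunits Cyc1 and Uqcrfs1 and for the non-redox subunits Uqcrb, Uqcrh, Uqcrc1 and Uqcrc2 thus had values on both sides of 0, and the median over the 6 was 0.06.

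Complex IV reduces oxygen, and its catalytic core is encoded by mitochondrial DNA. Its nuclear genes had a median log2 difference of 0.02, with 7 positive and 4 negative. Cox6c, an accessory subunit in the membrane (chr15:35931976-35938246), was at 52.1, 69.9 and 53.0 CPM in Ly49G+, against 48.8, 47.1 and 43.9 CPM in Ly49I+. The groups did not overlap, and Ly49G+ replicate 2 stood well above the others. The log2 difference was 0.31 ± 0.12 (SE, limma adjusted p = 0.182, and 0.0514 with the replicate block). Ndufa4, first assigned to complex I and now counted as a subunit of complex IV, was at 38.65, 42.5 and 42.9 CPM in Ly49G+, against 35.0, 35.5 and 38.1 CPM in Ly49I+. These groups did not overlap either, with a log2 difference of 0.19 ± 0.09 (SE, adjusted p = 0.261).

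Cox6a1, the broadly expressed isoform of a subunit at the dimer interface, was at 37.7, 30.9 and 39.4 CPM in Ly49G+, against 36.6, 38.4 and 62.5 CPM in Ly49I+. Ly49I+ replicate 3 alone was far above the rest, and the log2 difference of -0.31 ± 0.19 (SE, limma adjusted p = 0.362) was -0.06 without it. Cox4i1, the common isoform of the subunit that makes complex IV sensitive to ATP, was at 71.8 ± 0.680 CPM in Ly49G+ and 73.9 ± 8.57 CPM in Ly49I+ (SD, n = 3 each). Cox7a2l, whose long protein form joins complexes III and IV into supercomplexes and of which C57BL/6 mice are known to carry a shorter form, was at 190 ± 18.0 CPM in Ly49G+ and 177 ± 6.49 CPM in Ly49I+ (SD, n = 3 each), the most abundant complex IV RNA in CPM. Cox5a, a matrix-side subunit, was at 10.04, 13.1 and 11.3 CPM in Ly49G+, against 9.976, 9.55 and 9.57 CPM in Ly49I+, so its groups were separated by less than 0.1 CPM. All its Ly49I+ values were under 10 CPM, so Cox5a is listed only through its Ly49G+ libraries. The remaining genes, Cox5b, Cox6b1, Cox7b, Cox7c and Cox8a, overlapped between the groups.

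Complex V has a catalytic head of alpha, beta and gamma subunits and a membrane ring of c subunits that turns as protons pass. The alpha and beta genes were the most abundant of all 65 in CPM. Atp5a1 (alpha) was at 361 ± 6.40 CPM in Ly49G+ and 357 ± 29.9 CPM in Ly49I+ (SD, n = 3 each). Atp5b (beta) was at 307 ± 27.5 CPM in Ly49G+ and 312 ± 22.6 CPM in Ly49I+ (SD, n = 3 each). Both log2 intervals were narrow, at -0.15 to 0.19 for Atp5a1 and -0.22 to 0.17 for Atp5b. Atp5c1 (gamma) was at 145 ± 5.46 CPM in Ly49G+ and 135 ± 13.1 CPM in Ly49I+ (SD, n = 3 each), and Atp5e (epsilon) was at 10.5 ± 2.02 CPM in Ly49G+ and 10.7 ± 1.30 CPM in Ly49I+ (SD, n = 3 each). Atp5e is listed through its Ly49I+ libraries.

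Atp5pb, the stalk subunit b that holds the head still, was at 106, 109 and 101 CPM in Ly49G+, against 88.7, 94.6 and 96.9 CPM in Ly49I+. It was the only one of the 16 complex V genes whose groups did not overlap, with a log2 difference of 0.17 ± 0.07 (SE, limma adjusted p = 0.238). Atp5j2, the small membrane subunit f, was at 16.6, 17.5 and 21.8 CPM in Ly49G+, against 19.1, 21.95 and 24.6 CPM in Ly49I+, and the groups overlapped. The genes Atp5g1, Atp5g2 and Atp5g3 encode different import sequences but the same mature c subunit. Atp5g2 was at 11.4, 11.7 and 14.2 CPM in Ly49G+, against 13.01, 14.4 and 18.6 CPM in Ly49I+, with a log2 difference of -0.29 ± 0.17 (SE, adjusted p = 0.345). The groups overlapped, Ly49I+ replicate 3 being the highest.

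Because the 3 c subunit genes have transcripts of different lengths, they were compared in CPM per kilobase of transcript. Their summed level was 46.95, 56.5 and 52.3 CPM per kb in Ly49G+, against 44.0, 48.0 and 72.2 CPM per kb in Ly49I+. The groups overlapped, with the highest sum in Ly49I+ replicate 3. Atp5g3 supplied 52.3%, 61.0% and 49.5% of the sum in Ly49G+, against 46.4%, 44.1% and 53.5% in Ly49I+, and Atp5g2 supplied 33.3%, 28.4% and 37.1% in Ly49G+, against 40.4%, 41.0% and 35.2% in Ly49I+. Atp5g1 had the smallest share in every library, from 10.6% to 14.9%. This order rests on the transcript lengths used, 2655.5 bases for Atp5g1, 731 for Atp5g2 and 718.5 for Atp5g3. In CPM, before the division by length, Atp5g1 was above Atp5g2 in every library. The means were 17.5 against 12.4 CPM in Ly49G+ and 18.6 against 15.3 CPM in Ly49I+. These genes share closely similar coding sequence, and no source used here says how reads matching several copies were counted, so the split among them is uncertain.

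**Figure D2:**
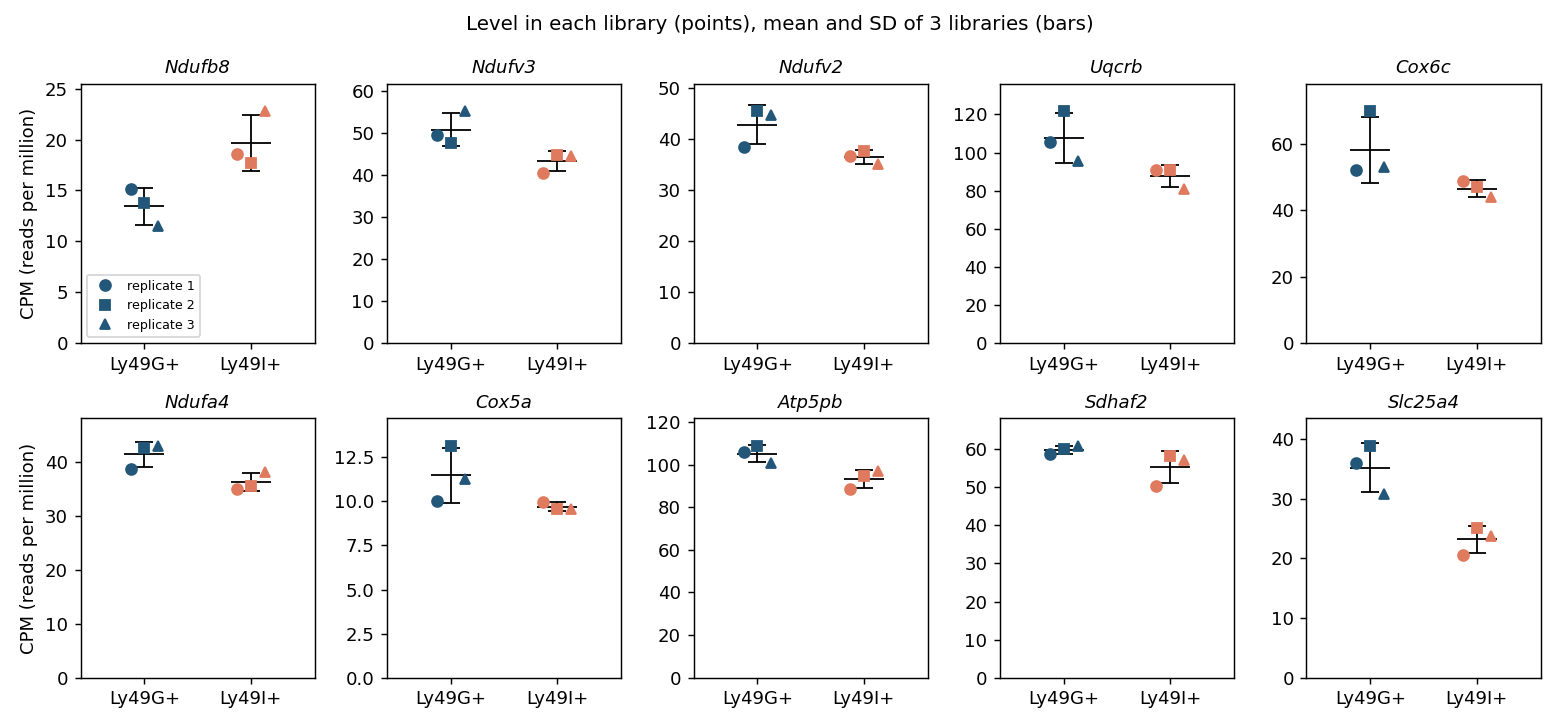
Level in CPM (vertical axis, from 0) in each of the 6 libraries for the 9 subunit and assembly factor genes whose groups did not overlap, and for Slc25a4; points are libraries, with symbols for the replicate number, and bars are the mean and SD of 3 libraries. Ndufb8 is the 1 of the 9 with Ly49G+ below Ly49I+, and Cox5a shows the narrowest gap, 10.04 CPM in the lowest Ly49G+ library against 9.976 CPM in the highest Ly49I+ library. Cox5a reached 10 CPM, the level needed for listing, only in Ly49G+ libraries.

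Per kilobase of transcript, the subunit genes were above the typical gene of the table in both populations. Their median was 31.95 CPM per kb in Ly49G+ and 32.7 CPM per kb in Ly49I+, against 16.9 CPM per kb in Ly49G+ and 17.1 CPM per kb in Ly49I+ over all genes with a known length. Transcript length differs greatly between these sets, with a median of 838 bases for the subunit genes and 3057 bases for all genes. The 10 CPM needed for listing is a higher level per kb for a short transcript, so part of this contrast is set by the filter. Without the division by length the order turned. The mean log2 CPM over the 6 libraries was then 4.98 to 5.24 for the 65 genes and 5.70 to 5.75 for all genes. Complex IV had the highest median level, at 81.5 CPM per kb in Ly49G+ and 87.5 CPM per kb in Ly49I+. Complex III followed at 49.9 CPM per kb in Ly49G+ and 50.5 CPM per kb in Ly49I+, then complex V at 37.5 CPM per kb in Ly49G+ and 36.2 CPM per kb in Ly49I+, and complex II at 33.5 CPM per kb in Ly49G+ and 36.4 CPM per kb in Ly49I+. Complex I, with the most subunits, was lowest of the 5, at 25.9 CPM per kb in Ly49G+ and 25.5 CPM per kb in Ly49I+. In Ly49I+ the medians of complexes II and V were nearly level, and the other 3 complexes had the same order in both populations. This order also rests on length, with a median transcript of 618 bases in complex IV, 1441.5 in complex III and 2900 in complex II. Without the division by length, complex IV was below complexes II and III in every library. Its mean log2 CPM was 5.54 to 5.76, against 5.59 to 5.98 for complex II and 5.67 to 5.90 for complex III.

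Single genes ranged widely around these medians. Atp5h, subunit d of the stalk, was the highest at 224 CPM per kb in Ly49G+ and 216 CPM per kb in Ly49I+. The complex III genes Uqcrh (216 CPM per kb in Ly49G+ and 190 CPM per kb in Ly49I+) and Uqcrb (201 CPM per kb in Ly49G+ and 163.5 CPM per kb in Ly49I+) came next. The lowest were Sdhaf1, at 4.39 CPM per kb in Ly49G+ and 3.46 CPM per kb in Ly49I+, and Atp5g1, at 6.59 CPM per kb in Ly49G+ and 7.01 CPM per kb in Ly49I+. The transcript length used for Sdhaf1, 2490 bases, is longer than the RefSeq span of the gene (chr7:30321409-30322375). The level of Sdhaf1 per kb may therefore be too low, and its place at the bottom is uncertain. Many of these genes have processed pseudogenes in the mouse genome, and reads shared with those copies may have been counted in either place.

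**Figure D3:**
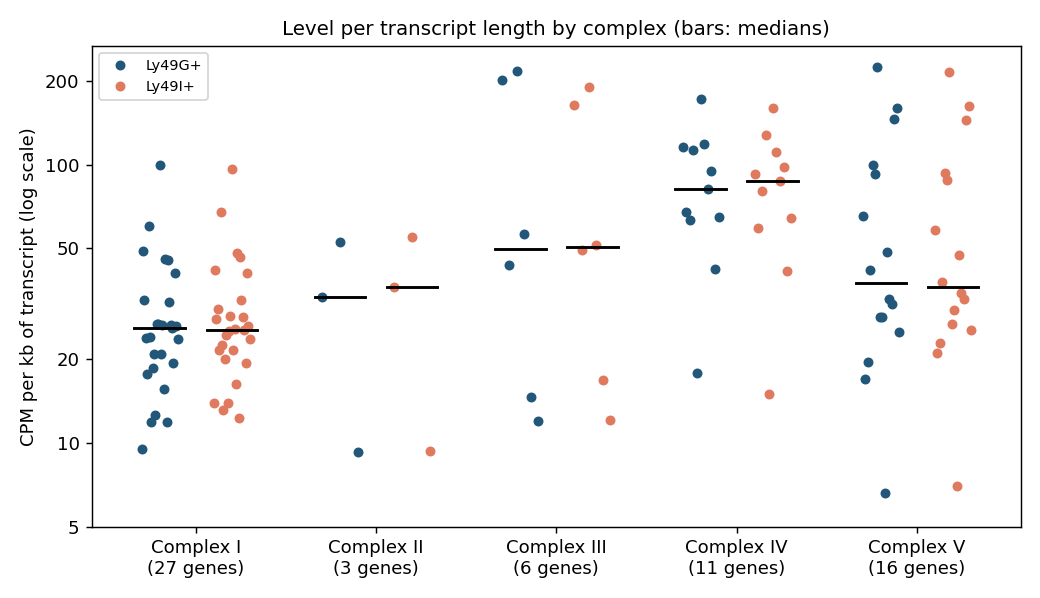
Level per transcript length (vertical axis, CPM per kb, log scale) for the 63 subunit genes by complex, without the 2 assembly factors, with Ly49G+ left of Ly49I+; points are group means of 3 libraries and lines are medians. The median of complex IV is the highest, at 81.5 CPM per kb in Ly49G+ and 87.5 CPM per kb in Ly49I+, and that of complex I is the lowest of the 5 complexes.

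The libraries of a group differed from each other in a way that many of these genes shared. Ly49I+ replicate 3 had the highest value of the 6 libraries for 30 of the 65 genes (46.2%), against 27.8% of all genes. The mean log2 CPM of the 65 genes was 5.02, 5.10 and 5.14 in Ly49G+ replicates 1, 2 and 3, against 4.98, 5.08 and 5.24 in Ly49I+ replicates 1, 2 and 3, so the groups overlapped and the lowest and the highest library were both Ly49I+. The same mean over all genes ran from 5.70 to 5.72 in Ly49G+ and from 5.71 to 5.75 in Ly49I+. Complex I had the same library at each end with a larger step up to Ly49I+ replicate 3, at 4.506, 4.532 and 4.582 in Ly49G+, against 4.498, 4.519 and 4.779 in Ly49I+. The median difference over the 65 genes was 0.05 without Ly49I+ replicate 3 and -0.07 without Ly49I+ replicate 1.

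**Figure D4:**
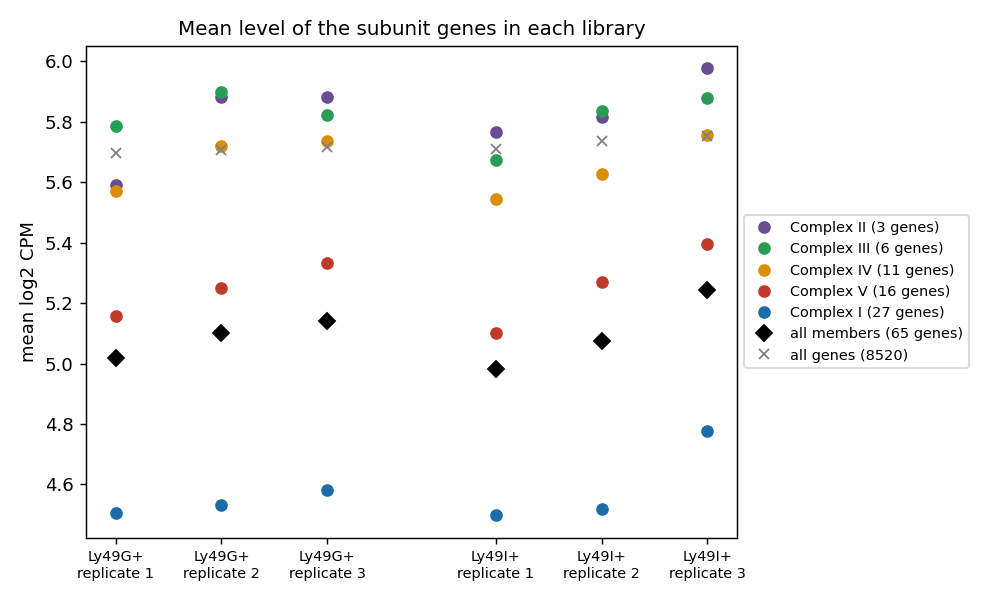
Mean log2 CPM (vertical axis) of the genes of each set in each of the 6 libraries, with Ly49G+ left of Ly49I+. Over the 65 genes the lowest mean, 4.98, is that of Ly49I+ replicate 1 and the highest, 5.24, that of Ly49I+ replicate 3, with all 3 Ly49G+ libraries between them.

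The share of G and C bases in the transcripts moved with this. The excess of Ly49I+ replicate 3 over the mean of Ly49I+ replicates 1 and 2 had a Pearson r of 0.57 with GC content across the 65 genes (Spearman rho 0.546), and of 0.64 across the 8275 genes with a known transcript (rho 0.706). Genes are not independent replicates, and all points share the same libraries, so these are descriptions with no test. Among the 32 genes with GC content above their median of 50.8%, the median excess was 0.26 on the log2 scale and 29 were higher in Ly49I+ replicate 3. Among the 33 at or below it, the median excess was 0.08 and 23 were higher. The largest excesses were those of Atp5g3 (0.89), Ndufb11 (0.87), Ndufb7 (0.85), Cox6a1 (0.74), Ndufs7 (0.72), Ndufa11 (0.69) and Ndufa7 (0.67). Atp5g3, with the largest, had a GC content of 50.5%, below the median, while the others named were above it.

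The group difference also ran with GC content. Pearson r was -0.42 across the 65 genes (Spearman rho -0.40) and -0.32 across the 8275 genes (rho -0.52). By rank the relation was thus stronger over all genes than over the 65. Of the 32 genes above the median GC content 9 had a positive difference, against 20 of the 33 others. After a smooth trend on GC content was taken out of each library, the median difference of the 65 genes was 0.04, and Ly49I+ replicate 3 was highest for 21 of them (32.3%). In that limma fit 1 of the 65 genes passed, against 6.84% of the 8275 genes. It was Ndufv3, higher in Ly49G+, against 4.0% of genes higher in Ly49G+ and 2.84% higher in Ly49I+ in that fit, with a log2 difference of 0.38 ± 0.08 (SE, adjusted p = 0.0108, and 0.0175 with the replicate block). Over all alternatives the adjusted p of Ndufv3 ran from 0.0108 to 0.375. In the same fit Uqcrb had an adjusted p of 0.148 and Ndufb8 of 0.0579. This correction was chosen after seeing the data, and the part of GC content in the difference between the populations was not tested further.

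**Figure D5:**
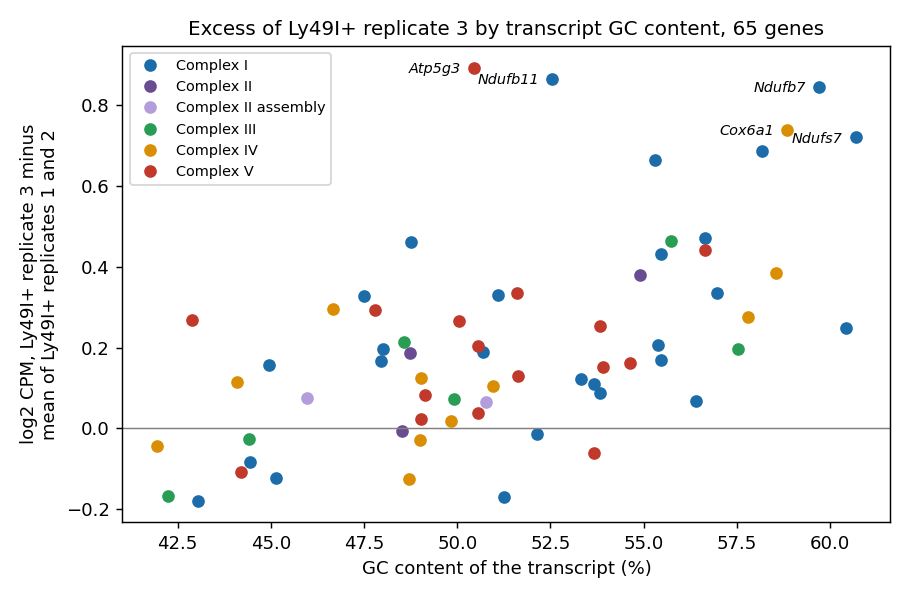
Excess of Ly49I+ replicate 3 over the mean of Ly49I+ replicates 1 and 2 (vertical axis, log2 CPM) against the GC content of the transcript (horizontal axis, percent) for the 65 genes, coloured by complex. The excess was larger at high GC content, with medians of 0.26 above 50.8% GC and 0.08 at or below it.

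Promoter sequence was read for the 54 of these genes that have a RefSeq window, which spans 250 bases before to 50 bases after a start site (build GRCm38.p6). Such a site can lie inside the gene's span, as for Ndufs7, whose span begins at chr10:80249105. A gene can have windows at different start sites, as Ndufa5 does, so shares of all windows are not shares of genes. Binding motifs of factors known to act on respiratory chain genes were searched on both strands. The NRF1 motif, GCGCA followed by any base and GCGC, was found for 13 of the 54 genes (24.1%), against 13.2% of the table's 6842 genes with a window. The share of all 32851 windows, which is not a share of genes, was 4.6%. The YY1 motif AAGATGGC was found for 9 genes (16.7%), against 6.2% of the table's genes and 2.75% of all windows. The GABP motif CCGGAAG, shared by ETS family factors, was found for 16 genes (29.6%), against 24.3% and 8.86%. The ERR alpha motif TCAAGGTCA was found for 1 gene (1.85%), Atp5g3, against 0.292% and 0.423%. The median log2 difference between the populations was -0.03 with and -0.02 without the NRF1 motif, 0.01 with and -0.02 without the GABP motif, and -0.10 with and -0.01 without the YY1 motif. A match is a run of letters and does not show that the factor binds there.

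The following 30-base stretches carry the NRF1 or YY1 motif in genes whose log2 differences have either sign. None of these genes passed in the limma test without the block. Motif letters are in capitals, and each sequence is written from the gene's own strand, 5′ to 3′, from RefSeq GRCm38.p6. The window of Sdha has 3 NRF1 motifs, and the first is given (chr13:74350319-74350348, minus strand). The others are the NRF1 motifs of Atp5c1 (chr2:10080430-10080459, minus) and Atp5k (chr5:108434430-108434459, minus), and the YY1 motifs of Ndufb8 (chr19:44555393-44555422, minus), Ndufs7 (chr10:80249462-80249491, plus), Ndufs4 (chr13:114388045-114388074, minus) and Atp5pb (chr3:105959248-105959277, minus), that of Atp5pb in reverse complement.
Sdha NRF1: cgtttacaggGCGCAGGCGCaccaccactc
Atp5c1 NRF1: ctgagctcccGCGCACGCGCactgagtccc
Atp5k NRF1: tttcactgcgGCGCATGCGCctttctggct
Ndufb8 YY1: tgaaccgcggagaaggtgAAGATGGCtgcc
Ndufs7 YY1: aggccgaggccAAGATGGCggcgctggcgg
Ndufs4 YY1: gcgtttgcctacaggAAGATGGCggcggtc
Atp5pb YY1: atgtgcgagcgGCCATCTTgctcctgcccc
Ndufb8, the gene with the lowest value relative to Ly49I+ cells, and Atp5pb, 1 of the 8 genes with all Ly49G+ libraries on top, thus both carry the YY1 motif close to the gene start. Of the 9 genes with this motif, 3 had a positive difference and the others a negative one. A link between the motif and the differences was not tested.

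Genes that work with the complexes were read from lists of assembly factors, electron carriers, tricarboxylic acid cycle enzymes, biogenesis regulators, nucleotide exchange, and import and cristae proteins. Slc25a4, an ADP/ATP carrier that exports ATP made by complex V (chr8:46207168-46211062), was higher in Ly49G+ cells. It was at 36.0, 38.8 and 30.8 CPM in Ly49G+, against 20.6, 25.1 and 23.8 CPM in Ly49I+, with no overlap and a log2 difference of 0.60 ± 0.12 (SE, limma adjusted p = 0.0200). The adjusted p was 0.0913 without Ly49G+ replicate 1 and 0.138 without Ly49G+ replicate 2. It was the only called gene of the 8 measured of 11 listed for exchange, uncoupling and ATPase inhibition, whose median log2 difference was 0.10, in a test that called 1.82% of all genes higher in Ly49G+. The summed level of the 8 overlapped between the groups, at 824 to 927.5 CPM in Ly49G+ and 835 to 968 CPM in Ly49I+. With the GC trend removed, 2 of the 8 passed, against 6.84% of all genes in that fit. The second was Atpif1, an inhibitor of ATP hydrolysis by complex V, at 29.2, 30.8 and 34.0 CPM in Ly49G+, against 25.6, 27.1 and 23.75 CPM in Ly49I+ (adjusted p = 0.150 as deposited, and 0.0315 with the GC trend removed); it was named after its values were seen.

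Myc, a transcription factor with mitochondrial biogenesis genes among its many targets (chr15:61985341-61990361), was also higher in Ly49G+ cells. It was at 78.8, 70.7 and 95.2 CPM in Ly49G+, against 48.2, 58.7 and 61.7 CPM in Ly49I+, with no overlap and a log2 difference of 0.53 ± 0.13 (SE, limma adjusted p = 0.0442). The call was lost when any of the 3 Ly49G+ replicates or Ly49I+ replicate 2 was left out, without the intensity trend (adjusted p = 0.0928), with a minimum mean log2 value of 5 (0.0532) and with voom weights (0.0528), and over all alternatives the adjusted p ran from 6.5e-04 to 0.136. The other 15 of 16 measured biogenesis regulators, of 21 listed, did not pass, and the list's median was 0.06.

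In the other lists no gene passed in the limma test without block or GC correction. Their measured members numbered 26 of 48 assembly factors (median log2 difference 0.09), 12 of 21 electron carriers and entry enzymes (-0.01), 18 of 19 tricarboxylic acid cycle genes (0.08) and 21 of 27 import and cristae genes (-0.01). With the replicate block 1 gene passed in each of 3 of these lists, against 11.7% of all genes in that fit (5.69% with Ly49G+ above), so the share in each list was below that of all genes. These 3 genes were named after their values were seen. Cox20, a chaperone for a mitochondrially encoded complex IV subunit, was at 82.0, 89.45 and 67.3 CPM in Ly49G+, against 66.9, 58.9 and 50.9 CPM in Ly49I+. Its log2 difference was 0.43 ± 0.13 (SE, limma adjusted p = 0.0928, 0.00452 with the block, and 0.0412 with the GC trend removed, where it was the 1 assembly factor to pass, against 6.84% of all genes). Pdhb, a subunit of pyruvate dehydrogenase, had an adjusted p of 0.132 without and 0.0287 with the block, and Tomm70a, a receptor for proteins imported into mitochondria, of 0.165 without and 0.0478 with it. None of the 15 mitochondrially encoded transcripts was in the table, so the catalytic core of complex IV and the other subunits made inside mitochondria were not analysed here.

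Cytosolic ribosomal protein genes, another large set of short transcripts, give a comparison for the libraries. Of 78 measured, 10 were higher in Ly49G+ cells and none higher in Ly49I+ cells in the limma test (1.82% and 1.77% of all genes), and 38 had an unadjusted p under 0.05 in either direction, against 19.8% of all genes. With the replicate block 36 of the 78 passed, all higher in Ly49G+, against 5.69% of all genes. The list had a median log2 difference of 0.22 and the respiratory subunits, with 0 of 65 called, one of -0.02. Their mean log2 CPM was 7.73, 7.785 and 7.85 in Ly49G+ replicates 1, 2 and 3, against 7.38, 7.53 and 7.78 in Ly49I+ replicates 1, 2 and 3. Ly49I+ replicate 3 was again the highest of its group, and Ly49I+ replicate 1 again the lowest of all 6 libraries.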

How the data were processed

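RNA was measured by strand-specific sequencing in 3 Ly49G+ and 3 Ly49I+ libraries, each made from 0.4 µg of total RNA and read as pairs of 100 bases, per the labels' protocols. CASAVA 1.8.2, STAR 2.3.0, limma and genome build mm10 are named in the submitters' processing notes. For the read counter, annotation and low-value filter, no detail was given in the sources used here. The authors deposited log2 CPM values for 8520 genes by NCBI gene number. Solving limma's voom formula (an offset of 0.5 per count and of 1 per library total) gave whole reads for 100% of values within 0.001 read, and every gene reached 10 CPM in at least 2 libraries. Genes outside the table held 1.43% to 1.71% of the reads.

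Names and coordinates came from RefSeq GRCm38.p6 for 8429 genes and from GENCODE M21 for 1 gene, and 90 stayed unnamed. Transcript length and GC content are medians over GENCODE M21 transcripts with a RefSeq record, found for 8275 genes (97.1%) and all 65 members. The comparison was Ly49G+ minus Ly49I+ on the deposited log2 values with limma 3.58.1 (R 4.3.3), with an intensity trend, 2-sided, adjusted by Benjamini-Hochberg over all 8520 genes at 0.05, and checked on simulated data. All adjusted p-values are limma's. Further steps used pandas 2.3.3 and numpy 2.4.6 in Python 3.11.15.

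The main limma test did not use the replicate number, and only the alternatives with the block treated same-numbered samples as pairs. Same-numbered replicates had correlations of their deviations from the group means, over all genes, of 0.371, 0.114 and 0.156 for replicates 1, 2 and 3. Some unlike numbers correlated as much: Ly49G+ replicate 3 with Ly49I+ replicate 2 at 0.359, and Ly49G+ replicate 2 with Ly49I+ replicate 1 at 0.115. Over the 65 genes the same-numbered values were 0.121, 0.095 and 0.187, and that last unlike pair had 0.292. What the data show for pairing by number is therefore weak and does not settle it. Named genes are the 3 smallest p-values and the 2 highest CPM of each complex, the core and isoform genes, and any listed pathway gene past the threshold. The members and lists were chosen with earlier results of these data known.

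Alternatives were the replicate block, TMM, median-ratio and median-centred scaling, no intensity trend, a robust prior, a minimum mean log2 value of 5, a pseudocount of 1 CPM, each library left out, voom weights, and length or GC trends (loess, span 0.5) removed. All samples and columns were used. The values of 1 of the 65 genes are not reported here by name, though it stays in the counts and medians.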

Additional observations from a re-analysis of the deposited data

How the results depend on the processing

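For the 65 genes the count called, 0 in the limma test, stayed at 0 under every scaling, prior, intensity trend, pseudocount, weighting and length setting tried, under the filter, which kept 32 of the 65, and without any 1 library (lowest 0, highest 0). The replicate block gave 2, 1 higher in Ly49G+ (Uqcrb) and 1 higher in Ly49I+ (Ndufb8). Removal of the GC trend gave 1, higher in Ly49G+ (Ndufv3), as did the block with the GC trend removed. The block also brought Cox20, Pdhb and Tomm70a past the threshold and changed no other call of a named gene. For all genes the count of 306 was 993 with the replicate block, 178 with a minimum mean log2 value of 5 (which tests fewer genes), 566 with the GC trend removed and 681 with the block and the GC trend removed. It ran from 94 to 644 when 1 library was left out. Leaving out Ly49G+ replicate 1, 2 or 3 gave 155, 94 or 168, and leaving out Ly49I+ replicate 1 gave 644. Signs turned for Sdhb (-0.21 to 0.0139 with 1 library left out, the highest without Ly49I+ replicate 3, and 0.0121 with the GC trend removed, with or without the block) and Sdhc (-0.17 to 0.15 with 1 library left out). Of 336 single-gene alternatives over 19 genes, 317 kept sign and call, 6 turned sign, 4 gained and 9 lost a call, and the causes were not tested. Voom weights and the length and GC trends were chosen after seeing the data. The planned count-model tests were not run, and voom weights on the recovered reads were used in their place. Ndufb8, Sdhc, Sdhaf1, Atp5g2, Atp5j2 and Slc25a4 have no value under the filter. How far depth limits the members with few reads was not tested.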
